A study of Vitis vinifera with 6 samples.

Results

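The pathogenesis-related protein 1 (PR1) cluster of grapevine chromosome 3 was represented on the array by 7 genes, VIT_03s0088g00700, VIT_03s0088g00710, VIT_03s0088g00750, VIT_03s0088g00780, VIT_03s0088g00810, VIT_03s0088g00890 and VIT_03s0088g00910. They were taken by gene identifier, without reference to their intensities, and all 7 had a probe among the 34369 gene probes, with 1 probe per gene. The array files pair no description with an identifier, so the membership of the cluster rests on the identifiers alone, and no separate name or role is given to a single member. Gene positions are read only as the order of the identifiers, in which 8 other genes of the array lie between the first and the last member. The 7 members were described in leaves of cv. Sultana, a seedless grape, from control plantlets and from plantlets transiently expressing VvWRKY26, a WRKY transcription factor, under the constitutive 35S promoter.

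PR1 proteins are small, secreted, cysteine-rich proteins of the CAP family that gather in the apoplast of infected leaves. In Arabidopsis and tobacco, PR1 transcripts are a common marker of defence that depends on salicylic acid and of systemic acquired resistance, and plant genomes often hold several PR1 genes side by side. WRKY factors bind W-box elements in promoters, and members of the WRKY family are known as regulators of defence genes, PR1 among them, in Arabidopsis.

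Both groups had been infiltrated under vacuum (90 kPa) with Agrobacterium tumefaciens strain C58C1 at an age of 5 weeks, the controls with a pK7WG2.0 vector that held a non-coding sequence, and were kept in vitro for 6 days before RNA was taken from young leaves. The labels name the controls wild type. No uninfiltrated plantlets were among the samples, so the level of a PR1 gene in control leaves is its level after contact with bacteria, and the effect of infiltration itself could not be measured. Plantlets were micropropagated in a growth chamber (25 °C, 16 h of light a day), and for each construct 3 of the infiltrated plantlets, chosen by the study for high or low VvWRKY26 expression, gave 1 array each. In RNA from whole leaves, fewer cells that express a gene and less RNA per cell cannot be told apart.

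Intensities are given as log2 of the background-subtracted signal relative to the 75th percentile of the same array, so that 0 is the 75th percentile of the gene probes and each unit is a doubling. The 6 arrays were scanned in 3 sessions of 1 control and 1 35S:VvWRKY26 array each. The first joined control 1 with 35S:VvWRKY26 1, the second control 2 with 35S:VvWRKY26 3, and the third control 3 with 35S:VvWRKY26 2. Between 73.9% and 77.6% of gene probes were well above background on the arrays of scans 1 and 3, against 94.7% and 94.9% on those of scan 2. Arrays of the same scan deviated from their group means together, with correlations across genes of 0.63, 0.68 and 0.53. The file headers give the same slide number and position to controls 1 and 2, and likewise to 35S:VvWRKY26 1 and 3, although their intensities differ (correlations across genes of 0.898 and 0.951), and they were counted as separate samples. No spot was saturated. The 99th percentile of the negative control spots was a signal of 123 on 35S:VvWRKY26 3 and of 3.23 to 11.1 on the other arrays.

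VvWRKY26 itself (VIT_08s0040g03070) had scaled intensities of 3.12, 3.25 and 2.57 in controls 1 to 3 and of 3.40, 3.69 and 3.32 in 35S:VvWRKY26 1 to 3. The groups did not overlap, in the direction the labels give, as was so for 2.47% of all genes in that direction. Because the study had chosen these plantlets for high or low VvWRKY26 expression, this is no independent check of the labels. The log2 difference was 0.49 (SE 0.34, 95% interval -0.35 to 1.33), with an unadjusted p of 0.202 (limma, adjusted p = 0.999983). The exact permutation p was 0.1, the smallest that 3 against 3 arrays allow. Within scans the difference was 0.28, 0.066 and 1.12. All 12 photosynthesis genes listed as leaf markers were well above background on every array. The summed signal of the 11 with a value on all 6 arrays lay between 468 (control 3) and 638 times the 75th percentile, with control 2 next to the lowest at 483.

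In control leaves, 5 of the 7 members were well above background on all 3 arrays, as were 72.5% of all genes. These were VIT_03s0088g00710, VIT_03s0088g00750, VIT_03s0088g00780, VIT_03s0088g00810 and VIT_03s0088g00890. VIT_03s0088g00700 was well above background in controls 2 and 3 only, and VIT_03s0088g00910 in none. With control 2, an array of scan 2, left out, the count stayed at 5. Over all 6 arrays, 4 of 7 members were well above background throughout (69.0% of all genes) and 1 on no array (2.69% of all genes).

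**Figure D1:**
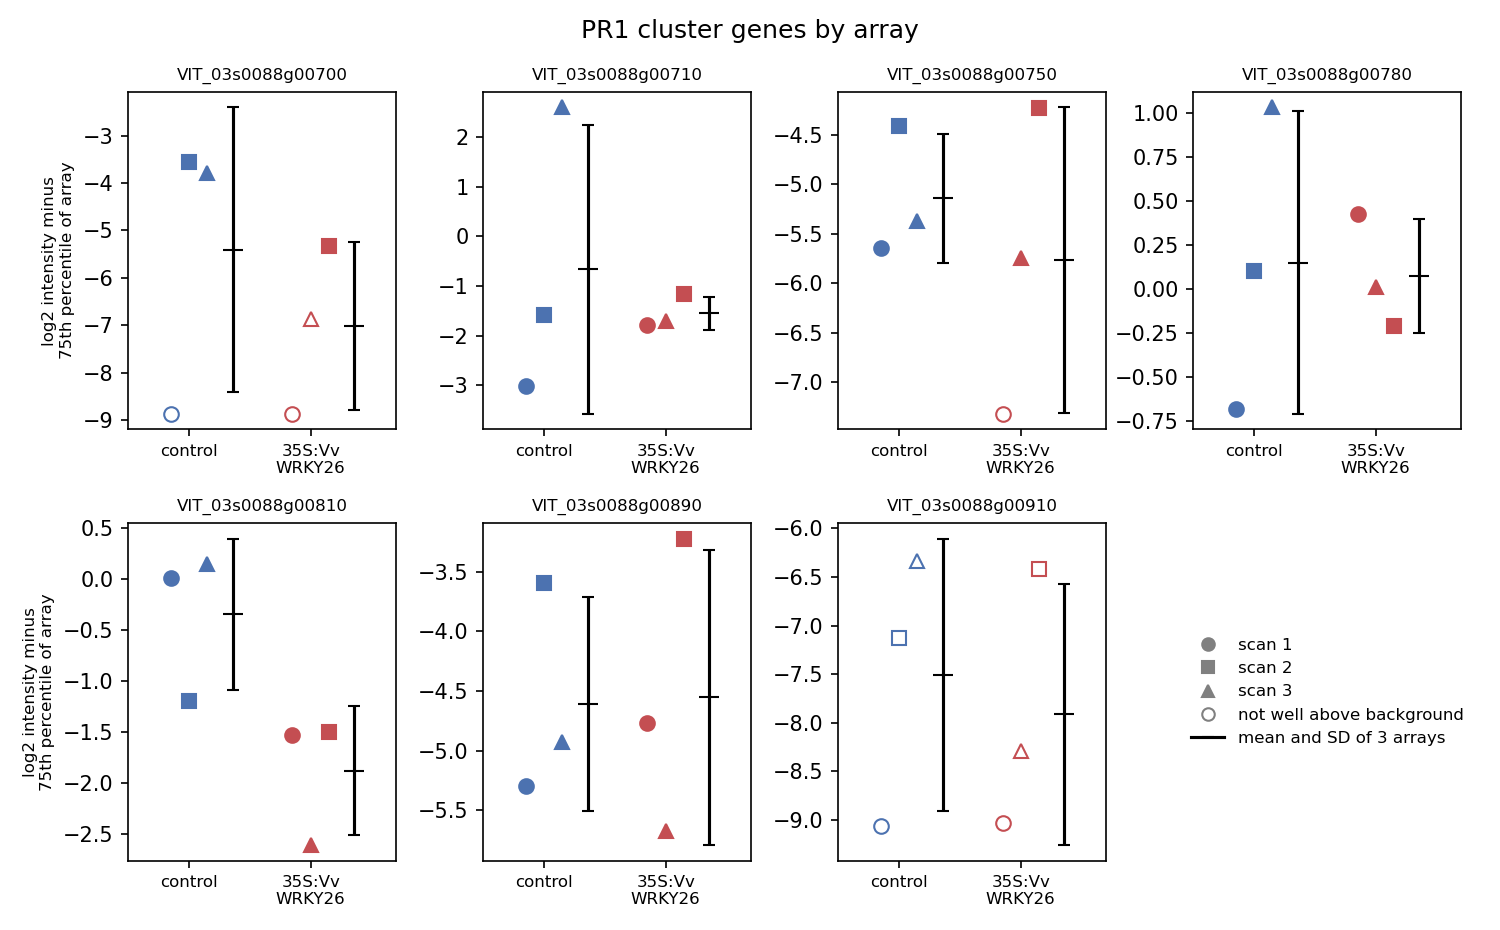
Scaled log2 intensity (y axis, log2 relative to the 75th percentile of each array, with a range of its own in each panel) of the 7 cluster members on the 3 control and the 3 35S:VvWRKY26 arrays. Filled points are well above background and open points are not, shapes mark the scan, colours the group, and bars the mean and SD of 3 arrays. The control array of scan 3 stands far above the rest for VIT_03s0088g00710, and the groups are apart only for VIT_03s0088g00810.

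No member passed the adjusted threshold of 0.05 between 35S:VvWRKY26 and control leaves (limma, adjusted p = 0.999983 for each of the 7), and no gene of the array did (0% of 34369). At an unadjusted p under 0.05, 1 of 7 members was lower in 35S:VvWRKY26 leaves, against 0.492% of all genes, and 0 were higher, against 0.541%. For 6 of 7 members the mean was lower in 35S:VvWRKY26 leaves, as for 55.4% of all genes, with a median log2 difference of -0.62 over the members and of -0.053 over all genes. These 6 include VIT_03s0088g00910, which was well above background on no array. Means at least 2-fold lower were found for VIT_03s0088g00700 and VIT_03s0088g00810, 2 of 7 members against 5.58% of all genes, the former well above background on 3 of 6 arrays. Without control 2, control 3 or 35S:VvWRKY26 1 the difference of VIT_03s0088g00700 was -0.70, -0.81 or -0.70, short of 2-fold. Means at least 2-fold higher were found for 0 of 7, against 2.01%. With control 3 or 35S:VvWRKY26 1 left out, 4 of 7 members had the lower mean.

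VIT_03s0088g00810 was the one member whose groups did not overlap, as was so for 2.33% of all genes in that direction and for 4.8% in either. Its scaled intensities were 0.011, -1.20 and 0.14 in controls 1 to 3 and -1.53, -2.61 and -1.50 in 35S:VvWRKY26 1 to 3. All 6 arrays measured it well above background, and the highest 35S:VvWRKY26 array lay below the lowest control. The group means were -0.35 ± 0.74 and -1.88 ± 0.63 (SD, n = 3 arrays each), a log2 difference of -1.53 (SE 0.54, 95% interval -2.86 to -0.20), or 2.89-fold lower. The unadjusted p was 0.0306 (limma, adjusted p = 0.999983), and the exact permutation p was 0.1, the smallest possible. The difference was -1.54, -0.30 and -2.75 within scans 1 to 3, and so small in scan 2. Its sign within scans adds nothing, since groups that do not overlap must differ the same way in each scan. Leaving out control 1, control 3 or 35S:VvWRKY26 2 brought the unadjusted p to 0.0863, 0.0943 and 0.0918 (limma).

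VIT_03s0088g00710 varied most among the controls relative to the 35S:VvWRKY26 arrays. Its scaled intensities were -3.01, -1.58 and 2.60 in controls 1 to 3 and -1.78, -1.72 and -1.16 in 35S:VvWRKY26 1 to 3, well above background on all 6 arrays. Control 3 was thus 18.1-fold above the next control and 48.6-fold above the lowest, whereas the 3 35S:VvWRKY26 arrays spanned 1.54-fold and lay between controls 1 and 3. Of the 23701 genes well above background on all 6 arrays, 5 (0.0211%), this one included, had control 3 above both other controls by at least as much, and 47 (0.198%) had as wide a range over the controls. The means were -0.67 ± 2.91 and -1.55 ± 0.34 (SD, n = 3 each), and the log2 difference of -0.89 (SE 1.42, 95% interval -4.39 to 2.61) had an exact permutation p of 0.8. Its sign rested on control 3, without which the difference was 0.74.

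VIT_03s0088g00780 was measured well above background on all 6 arrays, at scaled intensities of -0.69, 0.10 and 1.03 in controls 1 to 3 and of 0.43, 0.0066 and -0.21 in 35S:VvWRKY26 1 to 3. The 35S:VvWRKY26 arrays lay within the span of the controls, and control 3 was again the highest of the 6. The log2 difference was -0.073 (SE 0.52, 95% interval -1.35 to 1.20, exact permutation p = 0.9). The interval spans changes of more than 1 log2 unit both ways.

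VIT_03s0088g00890 was also measured on all 6 arrays, far below the 75th percentile. Its scaled intensities were -5.30, -3.59 and -4.93 in controls 1 to 3 and -4.77, -5.67 and -3.22 in 35S:VvWRKY26 1 to 3. The highest array of each group was the one of scan 2, and the span of the 35S:VvWRKY26 arrays covered that of the controls. The means were -4.61 ± 0.90 and -4.55 ± 1.24 (SD, n = 3 each), a log2 difference of 0.053 (SE 0.78, 95% interval -1.87 to 1.97, exact permutation p = 0.9).

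VIT_03s0088g00750 was well above background on all 3 control arrays and on 35S:VvWRKY26 2 and 3, but not on 35S:VvWRKY26 1. Its scaled intensities were -5.64, -4.41 and -5.37 in controls 1 to 3 and -7.32, -5.74 and -4.23 in 35S:VvWRKY26 1 to 3. Both the highest and the lowest of the 6 values were in 35S:VvWRKY26 leaves. The highest, a signal of 76.3 on 35S:VvWRKY26 3, was below the 99th percentile of that array's negative control spots (123). The log2 difference was -0.62 (SE 0.84, 95% interval -2.70 to 1.45, exact permutation p = 0.6), and without 35S:VvWRKY26 1 it was 0.15.

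VIT_03s0088g00700 was well above background in controls 2 and 3 and in 35S:VvWRKY26 3, and on no other array. Its signal on 35S:VvWRKY26 3 (35.5) was below the 99th percentile of that array's negative control spots (123), so its detection there is doubtful. Its scaled intensities were -8.87, -3.56 and -3.78 in controls 1 to 3 and -8.87, -6.87 and -5.34 in 35S:VvWRKY26 1 to 3, so that both measured controls lay above all 35S:VvWRKY26 arrays while control 1 did not. The log2 difference of -1.62 (SE 1.68, 95% interval -5.75 to 2.51) had an exact permutation p of 0.5. With scan as a block the same difference had an SE of 0.62 and an unadjusted p of 0.0466 (limma, adjusted p = 0.876), but in scan 1 neither array measured the gene well above background.

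VIT_03s0088g00910 was well above background on no array, so its fitted differences are not read as a change. Its values lay between -9.06 and -6.34 in the controls and between -9.03 and -6.42 in 35S:VvWRKY26 leaves, and on 2 of the 3 control arrays its signal exceeded that of 99% of the negative control spots. These arrays cannot tell a low level of this gene from none.

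The comparison within scans separated the third scan from the others. Counts are given first for the members well above background on both arrays of a scan. In scan 1 this held for 4 members, of which 1 was lower in the 35S:VvWRKY26 array than in its control, against 49.4% of all genes so measured. In scan 2 it held for 6, of which 3 were lower, against 54.0% of genes. In scan 3 it held for 5, and all 5 were lower, with log2 differences of -4.31 to -0.37, against 50.1% of genes. Of these 5, VIT_03s0088g00710, VIT_03s0088g00780 and VIT_03s0088g00810 were lower by at least 2-fold, as were 9.59% of genes. At least 2-fold lower were 1 of 4 members in scan 1 (6.72% of genes) and 1 of 6 in scan 2 (9.85%). The one in scan 2 was VIT_03s0088g00700, whose detection on 35S:VvWRKY26 3 is doubtful. With the values not well above background included, 3, 3 and 7 of 7 members were lower in scans 1 to 3, against 47.7%, 54.2% and 53.2% of all genes.

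**Figure D2:**
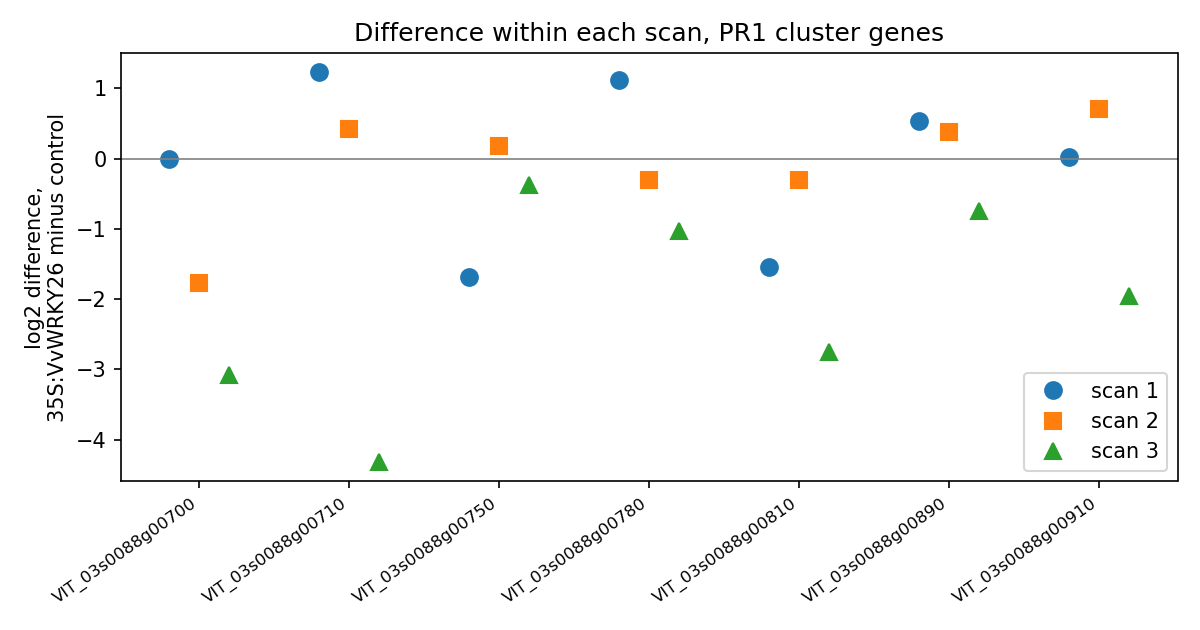
Difference of 35S:VvWRKY26 minus control in scaled log2 intensity (y axis) for each of the 7 members (x axis), with 1 point for each of the 3 scans, told apart by shape and colour. Points are also drawn where an array did not measure the gene well above background (VIT_03s0088g00910 in all scans, VIT_03s0088g00700 in scans 1 and 3, VIT_03s0088g00750 in scan 1); the 5 members measured on both arrays of scan 3 lie between -4.31 and -0.37.

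Control 3 was the highest of the 6 arrays for 4 of 7 members, VIT_03s0088g00710, VIT_03s0088g00780, VIT_03s0088g00810 and VIT_03s0088g00910, the last of them not well above background. Control 3 was the highest control for these 4 of 7 members, against 7153 of 34369 genes over the array. Across scans, 2 of 7 members (VIT_03s0088g00700 and VIT_03s0088g00810) were lower in all 3 scans, as were 14.2% of all genes. For VIT_03s0088g00810 this follows from groups that do not overlap. For VIT_03s0088g00700 the scan 1 difference was only -0.0026. Both arrays measured it well above background in scan 2 only, where its detection on 35S:VvWRKY26 3 is doubtful. With scan as a block, these 2 had an unadjusted p under 0.05, against 5.3% of all genes, and none of the 7 passed the adjusted threshold (limma, adjusted p between 0.876 and 0.986).

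The 8 genes whose identifiers lie between the members are not described in the sources used here. Of these 8, 5 had a higher and 3 a lower mean in 35S:VvWRKY26 leaves, with a median log2 difference of 0.074 and a range of -1.26 to 0.44. With normexp background correction or array weights 5 of the 8 had the lower mean, so their split is not fixed, and their difference from the members was not tested. None had an unadjusted p under 0.05, and for none did the groups not overlap. VIT_03s0088g00860, the gene at -1.26, differed by -0.76, -1.65 and -1.35 within scans 1 to 3 and had an unadjusted p of 0.00991 with scan as a block (limma, adjusted p = 0.876). It was not well above background on 35S:VvWRKY26 1 and 2, and without control 2 its difference was -0.28. VIT_03s0088g00720 was well above background on 35S:VvWRKY26 3 only, so its fitted differences are not read as a change. In scan 3, 5 of the 8 were lower, and control 3 was the highest control for 2 of the 8. Among 31 genes of the flanks on either side, 10 had a higher and 21 a lower mean, with a median difference of -0.075. None of the 31 had an unadjusted p under 0.05, and control 3 was the highest control for 6.

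**Figure D3:**
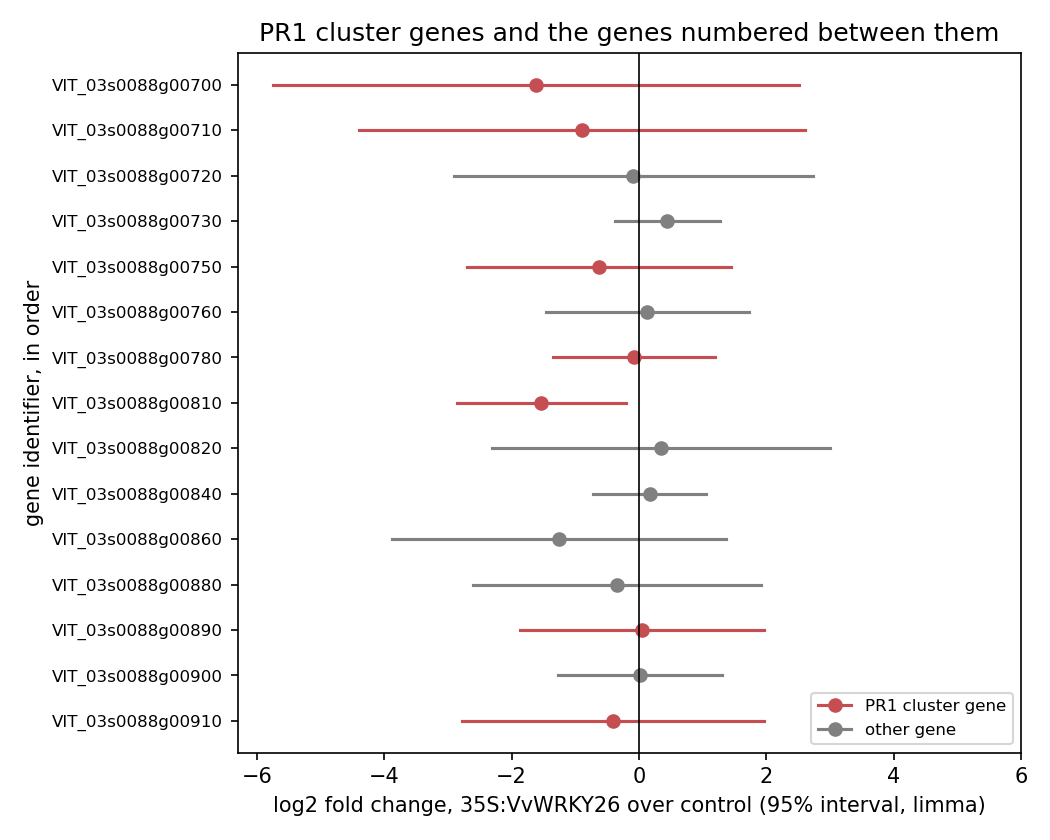
Log2 difference of 35S:VvWRKY26 minus control (x axis) with its 95% interval, for the 7 cluster members and the 8 genes between them in the order of their identifiers (y axis). The interval excludes 0 for VIT_03s0088g00810 alone, and those of VIT_03s0088g00700 and VIT_03s0088g00710 are the widest of the members. VIT_03s0088g00910 and VIT_03s0088g00720 are drawn at their fitted values, although they were well above background on 0 and 1 of the 6 arrays.

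A pair of genes annotated as PR1 precursors is not among the 7 members and lies on unplaced sequence. Where the pair lies relative to the cluster is therefore not known. The study had listed them as raised on these same arrays, so their direction is not independent evidence. VIT_00s0207g00160 had scaled intensities of 0.36, -0.084 and -0.28 in controls 1 to 3 and of 1.22, 1.15 and 1.64 in 35S:VvWRKY26 1 to 3. All 35S:VvWRKY26 arrays lay above all controls, and the log2 difference was 1.34 (SE 0.34, 95% interval 0.49 to 2.19), or 2.53-fold higher, with an unadjusted p of 0.00832 (limma, adjusted p = 0.999983). Within scans 1 to 3 it was higher by 0.86, 1.73 and 1.43, a sign that follows from groups that do not overlap. VIT_00s0207g00130 had -0.44, -0.77 and -1.04 in the controls and 0.14, -0.56 and 0.62 in 35S:VvWRKY26 leaves, a difference of 0.82 (SE 0.42, 95% interval -0.22 to 1.86, exact permutation p = 0.2). In both, control 3 was the lowest of the 6 arrays, where it was the highest for 4 of the 7 cluster members. The 95% interval of VIT_00s0207g00160 lay wholly above 0 and that of VIT_03s0088g00810 wholly below, and the difference between these genes was not tested.

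**Figure D4:**
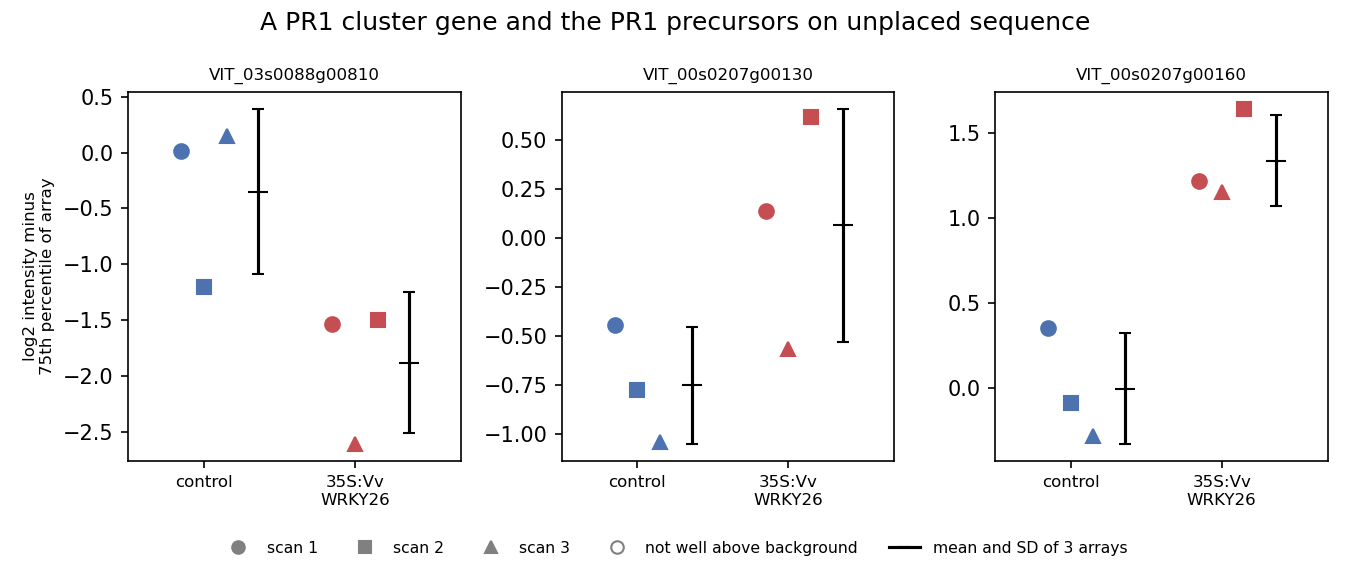
Scaled log2 intensity (y axis, log2 relative to the 75th percentile of each array) of VIT_03s0088g00810 and of the PR1 genes VIT_00s0207g00130 and VIT_00s0207g00160 on the 3 control and 3 35S:VvWRKY26 arrays, with scans by shape, groups by colour, and bars for the mean and SD of 3 arrays; each panel has a y range of its own. The groups do not overlap for VIT_03s0088g00810 (lower) and VIT_00s0207g00160 (higher), and overlap for VIT_00s0207g00130.

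Other defence genes with a description at hand, all on unplaced sequence, gave no call. Both class V chitinases, enzymes that cut the chitin of fungal walls, were well above background on all 6 arrays, and their log2 differences were -0.38 and 0.83. Of 37 genes annotated as disease resistance proteins, most of them intracellular immune receptors with nucleotide-binding and leucine-rich repeat domains, 15 had a higher and 22 a lower mean, with a median of -0.13. None of the 37 had an unadjusted p under 0.05, and in 1, VIT_00s0335g00020, the groups did not overlap (difference 0.56, SE 0.32), as in 2.47% of all genes in that direction. Control 3 was the highest control for 14 of these 37 genes and for 1 of the 2 chitinases. Of the 12 photosynthesis genes, 11 had a higher and 1 a lower mean, with a median of 0.28, none had an unadjusted p under 0.05, and the groups did not overlap, higher in 35S:VvWRKY26 leaves, for 2.

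Likeness of pattern was measured for the 4 members well above background on all 6 arrays, as the root mean square difference of log2 intensities centred on each gene's mean, over 6 arrays and against 23456 other genes. Nearest to VIT_03s0088g00710 were VIT_07s0129g01010 (0.54) and VIT_18s0001g10410 (0.57), which the sources used here do not describe. Nearest to VIT_03s0088g00780 were VIT_08s0040g02760 (0.096) and VIT_01s0011g04160 (0.10), annotated as a phosphatidic acid phosphatase alpha. The nearest genes to VIT_03s0088g00810 were VIT_00s0802g00020 (0.22) and VIT_08s0007g08010 (0.26), and to VIT_03s0088g00890 they were VIT_05s0136g00390 (0.10) and XLOC_006561 (0.10). The members were not each other's nearest genes. To VIT_03s0088g00710, 1191 genes were nearer than VIT_03s0088g00780, and to VIT_03s0088g00810, 8091 were nearer than VIT_03s0088g00780. The intensities were centred but not scaled, and the members' spreads differ. The SD over the 6 arrays was 1.92 for VIT_03s0088g00710, 1.04 for VIT_03s0088g00810 and 0.58 for VIT_03s0088g00780. These counts therefore cannot tell an unlike pattern from an unlike spread.

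The members' patterns over the 6 arrays were alike in part. Control 3 was the highest of the 6 arrays for 4 of 7 members. For VIT_03s0088g00700, VIT_03s0088g00750 and VIT_03s0088g00890 it lay between the other controls. PR1 genes of a tandem cluster can be close in sequence, and the probe sequences were not used here. Whether members shared signal by cross-hybridization was therefore not tested, and their patterns are given as description only.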

How the data were processed

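Leaf RNA of 3 control and 3 35S:VvWRKY26 plantlets was hybridized to a one-colour custom Agilent array with 34369 gene probes and 1417 control spots. The authors deposited, per array, spot intensities from Agilent Feature Extraction 10.5.1.1 after background subtraction, and a table normalized on the 75th percentile, also in intensity units. In that table, 5 columns are the spot signal times a factor of 0.849 to 1.72 (within 0.2% or 0.02 units, in all rows but 1), and the column of 35S:VvWRKY26 2 is the mean of 35S:VvWRKY26 1 and 3. It was used only as an alternative, without that column.

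From the deposited intensity, log2 of the signal minus the 75th percentile over gene probes was computed per array, with control spots left out and outlier spots (6 to 139 per array) missing. The difference between groups was fitted by lmFit and eBayes of limma 3.58.1 (4 residual and 1.88 prior degrees of freedom) in R 4.3.3, two-sided, with Benjamini-Hochberg adjustment over all genes at 0.05. Single genes also had two-sided exact permutation tests (SciPy 1.17.1). Python 3.11.15, NumPy 2.4.6, pandas 2.3.3 and matplotlib 3.10.9 were used. The number of arrays and the spread between them limit the precision. In data simulated for 3 against 3 arrays and 34369 genes, 0 of 100 genes changed by 2 on the log2 scale and 0 of 100 changed by 3 were called at the spread of these arrays, although 69 and 89 reached 0.05 unadjusted. With the spread set to 0.25 of the real one, 78 and 95 were called. The simulated arrays varied independently, whereas the real arrays deviated together within scans. The simulated counts therefore describe a fit without scan as a block, on arrays that share no scan.

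Genes named are all members, VvWRKY26, both PR1 genes on unplaced sequence, all genes between the members, and the 2 nearest in pattern to each member measured throughout. VIT_00s0335g00020 was named after its values were seen. The set of named genes and the lists were chosen with earlier results of these data known. The 7 members themselves were fixed by gene identifier and not by their values. Alternatives were normexp background correction (offset 50, on median signals), quantile or no scaling, the authors' table, dim probes left out, no removal of outliers, dim spots at the lowest measured signal, an intensity trend, array weights, blocks for replicate number, slide and scan, each array left out, and the methods' t-test. Leaving out both arrays of scan 2 was chosen after seeing the data. None of the 7 members matched the RefSeq gene table at hand, so no sequence or coordinate is given.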

Additional observations from a re-analysis of the deposited data

How the results depend on the processing

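No gene and no member passed the adjusted threshold in any of 21 alternatives (limma or the methods' t-test), nor with any 1 array left out (0 to 0 genes). At an unadjusted p under 0.05 the main comparison gave 355 genes, against 1822 with scan as a block, 855 with quantile normalization, 797 with array weights, 628 with an intensity trend, 621 without scan 2, 537 with slide as a block, 145 without scaling, 787 and 568 with the methods' t-test at equal and unequal variances, and 219 to 1213 with 1 array left out (highest without control 1). Replicate numbers did not pair the arrays (correlations of deviations 0.63, -0.28 and -0.40); with the replicate block 0 genes passed the adjusted threshold, 246 had an unadjusted p under 0.05, and VIT_03s0088g00810 had an unadjusted p of 0.0144 (limma). The share of genes with a higher mean was 44.6%, against 24.5% with normexp, which moved the median of all genes to -0.35, and 57.5% without scaling. The count of members well above background in all controls stayed at 5.

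VIT_03s0088g00810 was lower in 19 of 19 alternatives (-2.15 to -1.16, or -1.96 to -1.17 with 1 array left out). Only normexp, quantile or no scaling could have reversed its sign, since its groups do not overlap. Its unadjusted p was 0.110 without scaling, 0.0920 in the authors' table (limma) and 0.0527 or 0.0542 by the methods' t-test. Other members changed sign under some settings. VIT_03s0088g00780 gave 0.062 without scaling and 0.044 without scan 2. VIT_03s0088g00890 gave -0.50 with normexp, -0.11 with array weights and -0.11 without scan 2. VIT_03s0088g00910 gave 0.12 with dim spots at the lowest measured signal. Leaving out 1 array gave ranges of -3.35 to -0.70 for VIT_03s0088g00700, -2.06 to 0.74 for VIT_03s0088g00710, -1.39 to 0.15 for VIT_03s0088g00750, -0.49 to 0.37 for VIT_03s0088g00780, -0.61 to 0.61 for VIT_03s0088g00890 and -1.18 to 0.18 for VIT_03s0088g00910.

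Of the genes between the members, VIT_03s0088g00720 gave 0.012 with quantile normalization, 0.049 without scaling, 0.50 in the authors' table and 0.22 with dim spots at the lowest measured signal, VIT_03s0088g00760 gave -0.48 without scan 2, VIT_03s0088g00820 gave -0.62 with normexp and -0.21 with array weights, and VIT_03s0088g00840 gave -0.15 with normexp. Of these 8 genes, 1 to 6 had the lower mean over the alternatives that kept all 8. VIT_03s0088g00880 gave 0.18 with quantile normalization, 0.20 in the authors' table and 0.041 with dim spots at the lowest measured signal, and VIT_03s0088g00900 gave -0.0054 with quantile normalization, -0.028 with array weights and -0.0061 without scan 2. Leaving out 1 array gave -1.03 to 0.54 for VIT_03s0088g00720, -0.42 to 0.54 for VIT_03s0088g00760, -0.51 to 1.16 for VIT_03s0088g00820, -0.0016 to 0.37 for VIT_03s0088g00840, -2.03 to -0.28 for VIT_03s0088g00860 (highest without control 2), 0.30 to 0.65 for VIT_03s0088g00730, -1.19 to 0.21 for VIT_03s0088g00880, -0.36 to 0.37 for VIT_03s0088g00900, 0.28 to 0.63 for VvWRKY26, 0.54 to 1.13 for VIT_00s0207g00130 and 1.19 to 1.52 for VIT_00s0207g00160. The cause of these changes was not tested. With 3 arrays a group and signals near background for VIT_03s0088g00700, VIT_03s0088g00750 and VIT_03s0088g00910, the intervals of these genes include differences of several fold.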
